A study of Mus musculus with 10 samples.

Results

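The mitochondrial solute carriers pass metabolites across the inner mitochondrial membrane, and the genes described here are *Ucp2* and every gene of the deposited table named *Slc25a* followed by a number, other than *Slc25a13*, *Slc25a15* and *Slc25a20*. The rule took 43 of the 15126 genes in the table and used names only, not values. Their levels are given in the 5 AAV8-Control livers of the series. These came from male 10-week-old *db/db* mice, which lack the leptin receptor and become obese and diabetic, and which had received adeno-associated virus of serotype 8 (AAV8) encoding eGFP by tail vein 5 weeks before the livers were taken. The promoter of the vector is not given in the sources used here. All values describe obese, diabetic, virus-treated liver, and no untreated or lean liver stands beside them.

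The Slc25 carriers are built alike, from repeated pairs of membrane-spanning helices, and most of them exchange a substrate in the matrix for another in the intermembrane space. In hepatocytes they join the matrix steps of the urea cycle, the citrate and dicarboxylate traffic behind lipid and glucose synthesis, and the transfer of reducing equivalents to their cytosolic partners. They also carry ADP and phosphate in, ATP out, and bring cofactors such as NAD and coenzyme A to the enzymes that use them. Ucp2, the uncoupling protein that most tissues express, belongs to the same family and has been assigned both a mild proton leak and the export of dicarboxylates such as aspartate and malate. In liver it is known to be abundant in Kupffer cells and to appear in hepatocytes of obese animals.

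RNA was measured by sequencing, and each value is the count of reads on a gene per 1000000 counted reads of the library (CPM). The libraries held 19499795 to 35498596 counted reads, so that 1 read was worth 0.0282 to 0.0513 CPM. Reads of the genes of mitochondrial DNA made up 9.92% to 11.9% of a library. The labels give the material both as liver and as primary hepatocytes. All 6 hepatocyte markers were detected, with a summed level of 97515 to 132955 CPM, most of it *Alb* (80000.3 to 111611 CPM), and so were all 10 macrophage, 5 sinusoidal endothelial and 5 stellate cell markers, with sums of 174 to 357, 82.7 to 166 and 212 to 269 CPM. Summed markers of cholangiocytes (6.43 to 11.1 CPM), T cells (0.773 to 2.11 CPM), B cells (0.182 to 1.30 CPM), neutrophils (0.290 to 1.35 CPM) and adipocytes (0.145 to 1.64 CPM) were low. These markers do not settle which label holds. The paper reports its RNA-seq from the livers of these mice, so the material is described as whole liver. There, fewer cells of a type and less RNA per cell cannot be told apart. No pair of livers agreed within counting noise, the lowest ratio of chi-square to its degrees of freedom being 15.9, so each liver was counted as 1 sample.

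A few carriers held most of the carrier transcripts in these livers. Of the 43 genes, 39 had a mean of at least 1 CPM. The other 4 were *Slc25a2* (a paralog of the ornithine carrier), *Slc25a18* (a glutamate carrier), *Slc25a31* (the adenine nucleotide translocase of testis) and *Slc25a43*, each with 0 to 4 reads in a library. In all, 10 carriers averaged 100 CPM or more, 16 lay between 10 and 100 CPM and 13 between 1 and 10 CPM. The tenth was *Slc25a25* at 100.1 CPM, and 9 carriers were at 100 CPM or more with DESeq2's size factors, with TMM, and without AAV8-Control replicate 1 or 3. Among the 39, the share at 100 CPM or more was 25.6%, against 10.7% of all 11041 genes that averaged 1 CPM or more. Levels of different genes were compared per kilobase of exon, and on this scale the 39 carriers spanned a 1592-fold range. The first 6 made up 75.9% of the summed level per kilobase of all 43. Exon length counts each base that lies in an exon of any transcript listed for the gene. This can exceed the length of the transcripts present in liver. No other length was tried. Orders, sums by role and shares per exon length rest on this choice, which the SDs and ranges over livers do not cover.

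The order per kilobase began with *Slc25a39*, *Slc25a47*, *Slc25a10*, *Slc25a1*, *Slc25a5* and *Slc25a23*. Their means were 240 ± 27.0, 218 ± 32.3, 160 ± 16.3, 156 ± 23.9, 114 ± 8.14 and 84.8 ± 9.49 CPM per kilobase (SD, n = 5). *Slc25a39* (213 to 283 CPM per kilobase) overlapped *Slc25a47* (188 to 262), and *Slc25a10* (140 to 181) overlapped *Slc25a1* (123 to 184). *Slc25a47* lay clear of *Slc25a10*, *Slc25a1* of *Slc25a5* (101 to 122 CPM per kilobase), and *Slc25a5* of *Slc25a23* (77.0 to 98.7). *Slc25a3*, the phosphate carrier, followed in seventh place at 46.7 ± 2.66 CPM per kilobase (SD, n = 5). Its range over livers was clear of its neighbours on both sides. This place depends on its exon length of 5550 bases over all listed transcripts, and a shorter length would move it up. Along the whole order, the ranges of 30 of the 42 neighbouring pairs overlapped. *Ucp2* stood 16th, at 10.5 ± 1.31 CPM per kilobase (SD, n = 5), and overlapped *Slc25a45* above it and *Slc25a51* below it. Its exon length over all listed transcripts was 6989 bases, and its place depends on that length. The order was close to the same in each liver: across the 43 genes, Spearman's rho between livers ran from 0.988 to 0.994 over the 10 pairs of livers. Genes are not independent replicates, and length and sequence are shared between libraries, so these values are a description.

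**Figure D1:**
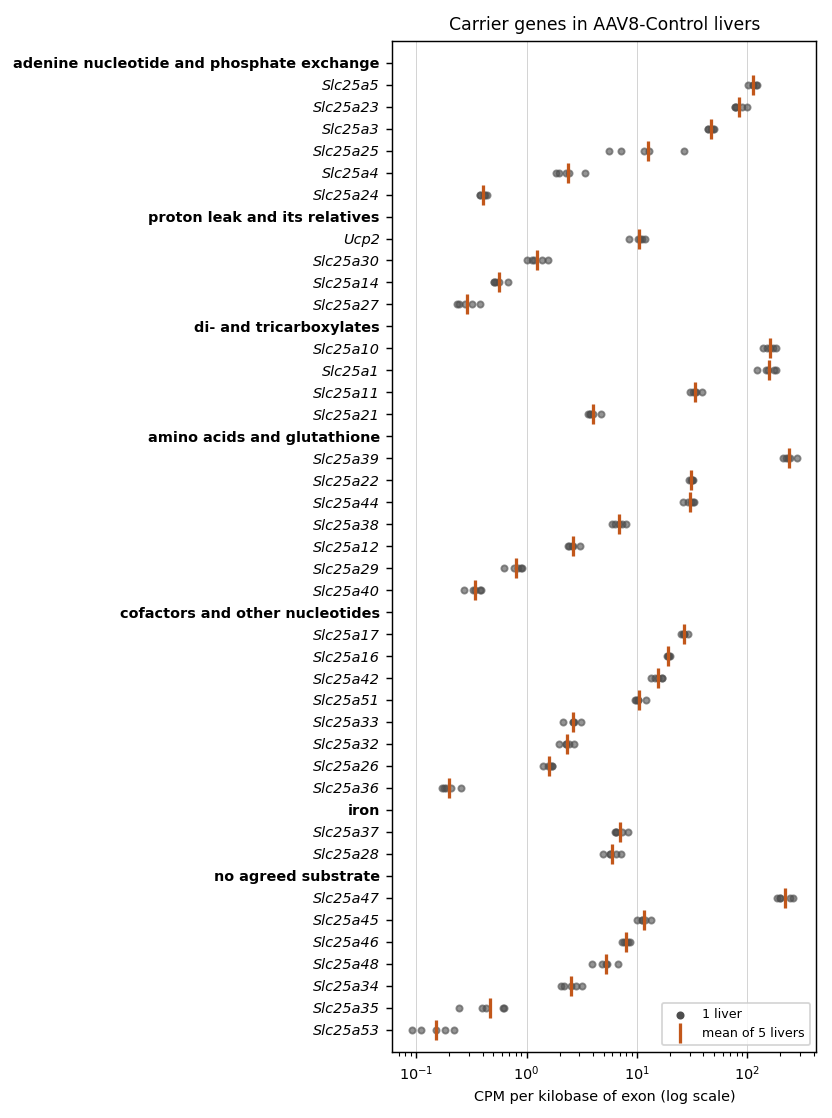
Level of 38 of the 39 carrier genes that averaged 1 CPM or more, in CPM per kilobase of exon on a log axis, grouped by role; grey points are single AAV8-Control livers and orange ticks their mean (n = 5). *Slc25a39* stands highest at 240 CPM per kilobase, and *Slc25a25* has the points spread most widely about its mean.

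The promoters of *Slc25a39*, *Slc25a25* and *Ucp2* are shown because *Slc25a39* was the carrier with the highest level, *Slc25a25* a carrier that differed widely between livers, and *Ucp2* the main member of the proton leak group. Each stretch is the 250 bases before a transcript start listed by RefSeq on GRCm38.p6, written 5′ to 3′ on the gene's strand. In the first, at chr11:102407518-102407767 on the minus strand, capitals mark the GC box GGGCGG or its reverse CCGCCC. In the second, at chr2:32424067-32424316 on the minus strand, they mark the cAMP response element TGACGTCA, and in the third, at chr7:100493108-100493357 on the plus strand, its half-site CGTCA.
Slc25a39: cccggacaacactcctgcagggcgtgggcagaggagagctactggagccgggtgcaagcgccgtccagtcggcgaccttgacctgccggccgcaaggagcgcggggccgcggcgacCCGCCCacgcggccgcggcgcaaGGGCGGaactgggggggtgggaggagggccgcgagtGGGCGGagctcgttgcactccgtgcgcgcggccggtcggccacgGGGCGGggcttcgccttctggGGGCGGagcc
Slc25a25: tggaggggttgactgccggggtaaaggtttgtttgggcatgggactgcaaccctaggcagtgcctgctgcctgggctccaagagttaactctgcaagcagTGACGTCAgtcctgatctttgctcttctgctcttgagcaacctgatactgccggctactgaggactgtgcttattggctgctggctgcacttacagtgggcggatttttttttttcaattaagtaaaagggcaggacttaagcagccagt
Ucp2: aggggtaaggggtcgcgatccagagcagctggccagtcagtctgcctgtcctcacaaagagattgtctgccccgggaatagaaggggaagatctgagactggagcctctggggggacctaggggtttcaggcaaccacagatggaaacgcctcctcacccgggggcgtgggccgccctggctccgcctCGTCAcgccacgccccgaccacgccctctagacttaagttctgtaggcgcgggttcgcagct
The *Slc25a39* window holds 5 GC boxes and is 77.2% G and C, against 63.6% in the *Ucp2* window and 51.6% in the *Slc25a25* window. The *Slc25a39* and *Slc25a25* windows lie inside the gene spans that GENCODE gives. The *Slc25a25* start shown is 1 of 3 listed for the gene, and the windows of the other 2 starts do not hold the element. RefSeq promoters were found for 33 of the 43 genes, 42 windows in all, and both strands were searched. The GC box was in 30 of 42 windows (71.4%) against 32.7% of 32851 promoters of the same length, and CCAAT in 20 of 42 (47.6%) against 33.8%. The full palindrome TGACGTCA, which contains the half-site on each strand, was in 2 of the 42 windows (*Slc25a25* and *Slc25a36*, a pyrimidine nucleotide carrier) against 1.55% of all. The half-site TGACG or CGTCA was in 11 of 42 (26.2%) against 17.8%. CACGTG was in 6 (14.3% against 6.02%), TGCGCA in 4 (9.52% against 6.43%) and TATAAA in 2 (4.76% against 12.4%). These matches describe letters in a window and say nothing of binding.

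By role, the adenine nucleotide and phosphate, the amino acid and glutathione, and the di- and tricarboxylate groups had like sums of CPM, whose ranges over the livers overlapped. Per kilobase of exon their sums were 261 ± 20.3, 312 ± 29.6 and 355 ± 41.9 CPM (SD, n = 5), with the carboxylate group above the adenine nucleotide group in each of the 5 livers. This order rests on the exon lengths used. The adenine nucleotide and phosphate group summed to 1003 ± 120 CPM (SD, n = 5), or 23.6% ± 1.60 of the summed CPM of all carriers. It holds the adenine nucleotide translocases *Slc25a4*, *Slc25a5* and *Slc25a31*, the phosphate carrier *Slc25a3*, and the calcium-regulated ATP-Mg/phosphate carriers *Slc25a23*, *Slc25a24* and *Slc25a25*. Each of these families was held by 1 form. Per exon length, *Slc25a5* made up 97.9% ± 0.398 (SD, n = 5) of the translocase transcripts, *Slc25a4*, the muscle form, 2.03% ± 0.410, and *Slc25a31* 0.0237% ± 0.0325, from 0 to 4 reads in a library. *Slc25a5* (ENSMUSG00000016319, chrX:36795651-36798807, plus strand, GRCm38) read 185, 197, 201, 167 and 186 CPM in AAV8-Control replicates 1 to 5. The lowest value, in replicate 4, was 1.21-fold below the highest.

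*Slc25a23* made up 87.3% ± 5.66 (SD, n = 5) of the ATP-Mg/phosphate carriers per exon length, *Slc25a25* 12.3% ± 5.72 and *Slc25a24* 0.423% ± 0.0735. *Slc25a23* (ENSMUSG00000046329, chr17:57043711-57059863, minus strand) read 523, 423, 408, 412 and 480 CPM in replicates 1 to 5. *Slc25a25* (ENSMUSG00000026819, chr2:32414487-32451445, minus strand) read 209, 43.8, 101, 56.6 and 90.9 CPM in the same livers. Replicate 1 was the highest for both genes, and *Slc25a25* was lowest in replicates 2 and 4. With these values the share of *Slc25a25* in the family ran from 6.49% in replicate 2 to 21.1% in replicate 1. *Slc25a3* (ENSMUSG00000061904, chr10:91116574-91124059, minus strand) was at 259 ± 14.8 CPM (SD, n = 5).

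Over the 5 livers *Slc25a25* had the largest spread of the 39 carriers that averaged 1 CPM or more. Its coefficient of variation between livers was 64.9%, where counting alone would give 2.04% at its read counts, and its highest liver stood 4.76-fold above its lowest. The median coefficient of variation was 11.2% over the 39 carriers and 10.6% over the 11041 genes. Of these genes, 99.6% had a smaller coefficient of variation than *Slc25a25*. Without replicate 1 its mean of 100.1 ± 65.0 CPM (SD, n = 5) was 73.0 CPM and its coefficient of variation 37.2%, below the 39.4% of *Slc25a35*, a carrier near 1 CPM. It had the largest coefficient of variation of the 39 when any of the other 4 livers was left out. *Slc25a25* shares 4.82% of its exon bases with *Naif1*.

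The other end of the spread, on the deposited scale, was held by *Slc25a16* and *Slc25a22*. *Slc25a16*, a carrier of the cofactor group, was at 92.8 ± 1.94 CPM (SD, n = 5), a coefficient of variation of 2.09%, close to the 2.08% that counting alone would give. *Slc25a22* was at 187 ± 5.30 CPM (SD, n = 5), a coefficient of variation of 2.84%. Spreads this small depend on the scaling, and those of *Slc25a16* and *Slc25a22* are not given under the other scalings. In all, 12 of the 39 carriers had a coefficient of variation under 10%. *Slc25a35*, *Slc25a53* and *Slc25a4* followed *Slc25a25* with 34.9%, 34.5% and 25.0%, at mean levels under 10 CPM, where counting alone would give 15.7%, 18.5% and 8.52%.

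**Figure D2:**
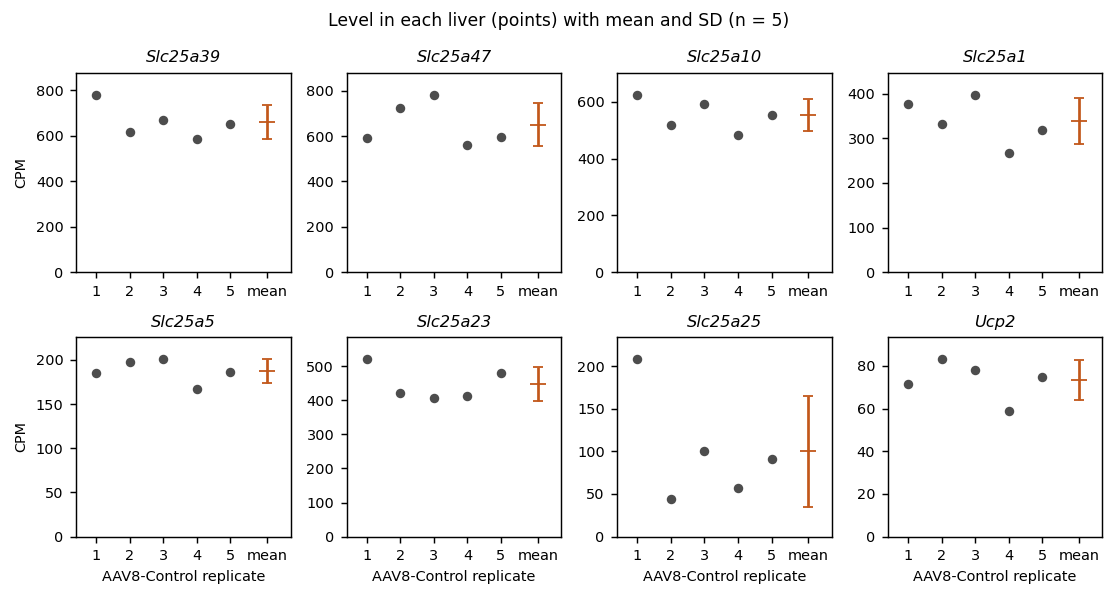
CPM in each liver for the 6 carriers with the highest level per kilobase, *Slc25a25* and *Ucp2*; points are AAV8-Control replicates 1 to 5 and the orange bar is their mean with SD (n = 5). In the *Slc25a25* panel replicate 1 stands at 209 CPM and replicate 2 at 43.8 CPM, while the livers of the other panels lie closer together relative to their mean.

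The proton leak group summed to 81.6 ± 8.85 CPM (SD, n = 5), or 1.92% ± 0.201 of the summed CPM of the carriers. It holds *Ucp2*, *Slc25a14* and *Slc25a27* (brain relatives of the uncoupling proteins) and *Slc25a30* (a kidney-enriched relative). Per exon length *Ucp2* made up 83.2% ± 3.23 of the group, *Slc25a30* 10.0% ± 2.15, *Slc25a14* 4.52% ± 1.06 and *Slc25a27* 2.31% ± 0.429 (SD, n = 5). *Ucp2* (ENSMUSG00000033685, chr7:100493337-100502020, plus strand) read 71.3, 83.3, 78.3, 59.0 and 75.0 CPM in replicates 1 to 5, a mean of 73.4 ± 9.17 CPM (SD, n = 5). Replicate 4 was the lowest and replicate 2 the highest, 1.41-fold apart. Its coefficient of variation of 12.5% was larger than that of 60.4% of these 11041 genes. *Slc25a30* (ENSMUSG00000022003, chr14:75760117-75787037, minus strand) read 4.62, 5.34, 5.16, 6.34 and 7.10 CPM, and was highest in replicates 4 and 5. *Slc25a14* was at 1.32 ± 0.166 and *Slc25a27* at 1.14 ± 0.236 CPM (SD, n = 5), and *Ucp3*, the muscle uncoupling protein, at 0.0431 ± 0.0377 CPM. *Ucp2* shares 4.36% of its exon bases with *Dnajb13*.

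Since *Ucp2* is also a Kupffer cell gene, the 10 macrophage markers are given beside it. Their summed level was 273, 357, 320, 212 and 174 CPM in replicates 1 to 5. *Clec4f*, which defines Kupffer cells, was at 56.0 ± 13.8 CPM (SD, n = 5), and none of the 10 markers was at 0. Replicate 2 was the highest in both *Ucp2* and the marker sum. Replicate 5 had the lowest marker sum and the third highest *Ucp2* level, and replicate 4 had the lowest *Ucp2* level and the second lowest marker sum. With 5 livers no correlation was computed, and the part of the macrophage content in the *Ucp2* level was not tested.

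**Figure D3:**
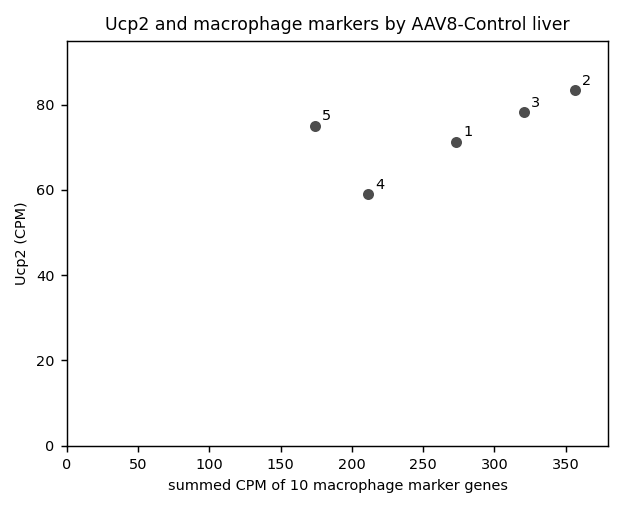
*Ucp2* in CPM against the summed CPM of 10 macrophage marker genes, 1 point per AAV8-Control liver, numbered by replicate. The marker sum runs from 174 to 357 CPM while *Ucp2* runs from 59.0 to 83.3 CPM.

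The 4 carriers of di- and tricarboxylates summed to 984 ± 111 CPM (SD, n = 5) or 23.1% ± 0.914 of the carriers. They are *Slc25a1* (the citrate carrier, which supplies cytosolic acetyl-CoA), *Slc25a10* (the dicarboxylate carrier), *Slc25a11* (the oxoglutarate/malate carrier) and *Slc25a21* (the oxodicarboxylate carrier). *Slc25a10* (ENSMUSG00000025792, chr11:120491840-120499187, plus strand) read 625, 519, 592, 484 and 551 CPM in replicates 1 to 5. *Slc25a1* (ENSMUSG00000003528, chr16:17925223-17928219, minus strand) read 378, 333, 398, 267 and 318 CPM. Both genes were highest in replicates 1 and 3 and lowest in replicate 4. The range of *Slc25a1* was 1.49-fold and that of *Slc25a10* 1.29-fold. *Slc25a11* was at 71.9 ± 6.62 and *Slc25a21* at 19.3 ± 2.10 CPM (SD, n = 5).

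Among the carriers of amino acids and glutathione, which summed to 999 ± 83.7 CPM (SD, n = 5), *Slc25a39*, the glutathione carrier, held most of the level. It made up 99.9% of the transcripts, per exon length, of the pair it forms with *Slc25a40*. *Slc25a39* (ENSMUSG00000018677, chr11:102402985-102407946, minus strand) read 781, 617, 671, 587 and 651 CPM in replicates 1 to 5, a mean of 661 ± 74.3 CPM (SD, n = 5). Replicate 1 was the highest, by 110 CPM on the deposited scale, and was also the highest under the other 3 scalings.

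*Slc25a22*, which carries glutamate with a proton (ENSMUSG00000019082, chr7:141429744-141437892, minus strand), read 188, 178, 188, 193 and 187 CPM. It made up 99.9% ± 0.116 (SD, n = 5) of the pair of glutamate carriers, since *Slc25a18* had 0 to 3 reads in a library, all within the floor of 3 reads. *Slc25a44*, the carrier of branched-chain amino acids, was at 108 ± 10.1 CPM, *Slc25a12*, an aspartate/glutamate carrier, at 19.2 ± 1.97 CPM, and *Slc25a38*, which carries glycine for heme synthesis, at 18.9 ± 2.10 CPM (SD, n = 5). *Slc25a40* was at 2.87 ± 0.391 and *Slc25a29*, which carries basic amino acids, at 2.10 ± 0.291 CPM (SD, n = 5).

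Cofactor and nucleotide carriers summed to 366 ± 10.5 CPM (SD, n = 5), 8.64% ± 0.636 of the carriers. All 9 had a mean of at least 1 CPM. *Slc25a42* (coenzyme A) was at 92.9 ± 9.14 CPM, and *Slc25a17*, the peroxisomal cofactor carrier, at 76.3 ± 4.36 CPM (SD, n = 5). *Slc25a51*, which brings NAD into the matrix (ENSMUSG00000045973, chr4:45395923-45408766, minus strand), read 67.3, 54.0, 56.7, 53.0 and 56.2 CPM in replicates 1 to 5. Replicate 1 stood apart from the other 4 livers, which lay within 3.64 CPM of each other. *Slc25a32* (folate) was at 14.2 ± 1.65 and *Slc25a26* (S-adenosylmethionine) at 7.70 ± 0.579 CPM (SD, n = 5). Of the pyrimidine nucleotide carriers, *Slc25a33* was at 5.00 ± 0.635 and *Slc25a36* at 1.92 ± 0.330 CPM, and per exon length *Slc25a33* made up 92.9% ± 1.24 of the pair (SD, n = 5).

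The mitoferrins, which carry iron into the matrix, were the one family here shared nearly evenly between its forms. They summed to 64.3 ± 7.82 CPM, or 1.51% ± 0.0814 of the carriers (SD, n = 5). *Slc25a37* was at 41.9 ± 5.04 and *Slc25a28* at 22.4 ± 3.24 CPM (SD, n = 5). Per exon length *Slc25a37* made up 53.9% ± 2.21 (SD, n = 5) of the pair, from 50.9% in replicate 3 to 56.4% in replicate 4, and so led in each of the 5 livers.

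The last group holds carriers without an agreed substrate, at 753 ± 87.8 CPM (SD, n = 5), of which *Slc25a47*, a carrier made almost only in liver, was the main member. *Slc25a47* (ENSMUSG00000048856, chr12:108836046-108856815, plus strand) read 592, 722, 783, 561 and 595 CPM in replicates 1 to 5, a mean of 650 ± 96.5 CPM (SD, n = 5). Replicates 2 and 3 lay above the other 3 livers, which differed from each other by 34.2 CPM at most. *Slc25a48*, for which choline import has been proposed (ENSMUSG00000021509, chr13:56438355-56474239, plus strand), read 22.8, 16.3, 13.2, 17.8 and 18.3 CPM. *Slc25a45* was at 31.8 ± 3.39 and *Slc25a46*, a protein of the outer membrane that takes part in its fusion and lipid exchange, at 43.4 ± 2.81 CPM (SD, n = 5). *Slc25a34* was at 6.78 ± 1.23, *Slc25a35* at 1.70 ± 0.594 CPM (SD, n = 5), and *Slc25a53* between 0.725 and 1.74 CPM. *Slc25a35* shares 31.3% of its exon bases with *Rangrf*, and since the sources used here do not say whether counting used strand, its level is uncertain.

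Livers differed in how many carriers they led. AAV8-Control replicate 1 had the highest level for 14 of the 39 carriers and the lowest for 5, and replicate 4 the highest for 4 and the lowest for 13. The same counts over all genes were not made, so these counts do not set the carriers apart. TMM divides every gene of replicate 1 by 1.05 and every gene of replicate 4 by 0.968. The summed CPM of all 43 genes was 4666, 4145, 4445, 3788 and 4211 in replicates 1 to 5, a mean of 4251 ± 330 CPM (SD, n = 5). The leading liver by this sum depended on the scaling: with DESeq2's size factors replicate 1 stood at 4441 and replicate 3 at 4482 CPM, and with TMM at 4423 and 4479 CPM. Under these scalings replicate 1 had the highest level for 12 and 11 of the 39 carriers, and replicate 4 for 6 and 7. Replicate 5 then had the lowest level most often, for 10 and 10 carriers, against 9 and 9 for replicate 4 and also for replicate 3.

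**Figure D4:**
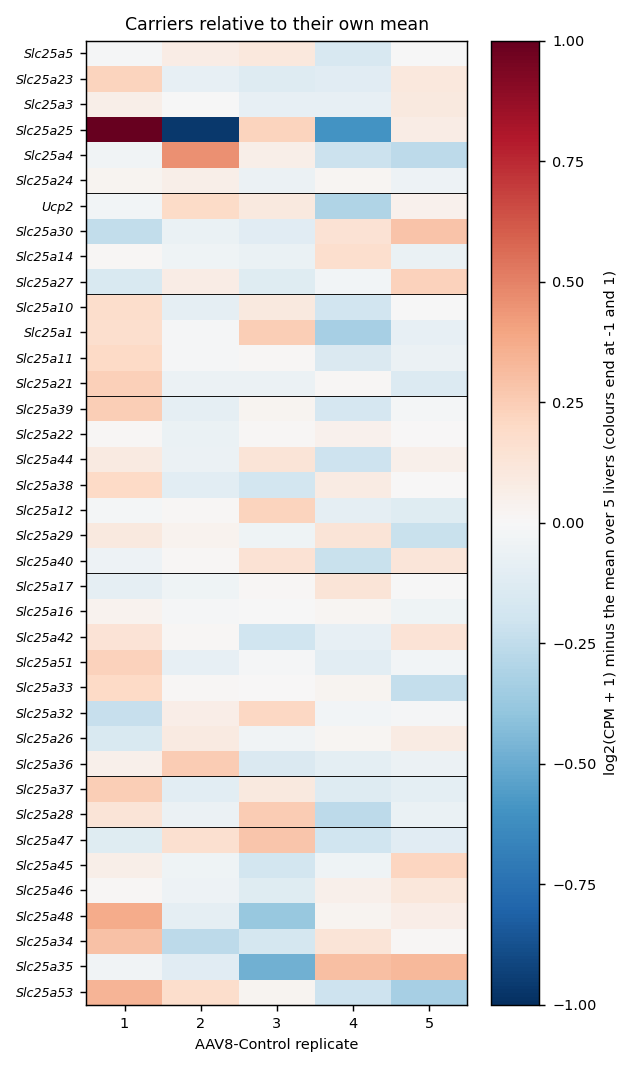
log2(CPM + 1) of 38 of the 39 carriers with a mean of at least 1 CPM in the 5 AAV8-Control livers, each gene relative to its own mean, with red above and blue below it; lines part the role groups in the order of the plot by role. *Slc25a25* has the strongest colours, and replicate 1 holds the highest value of 14 of the 39 carriers.

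Related genes from lists outside the member rule gave the setting. Of the carriers that the rule leaves out, *Slc25a15* (ornithine) was at 369 ± 41.2 CPM, *Slc25a13* (aspartate/glutamate, which serves the urea cycle) at 210 ± 14.6 CPM and *Slc25a20* (acylcarnitine) at 183 ± 15.7 CPM (SD, n = 5). Per kilobase of exon they stood at 65.6 ± 7.31, 55.2 ± 3.86 and 37.8 ± 3.24 CPM (SD, n = 5), below the means of 6, 6 and 7 of the 43 genes. The 18 other channels and transporters of the mitochondrion summed to 1080 ± 39.3 CPM, and the 14 genes for the import of carrier proteins to 313 ± 12.9 CPM, of which 13 had a mean of at least 1 CPM (SD, n = 5). The 12 shuttle and citrate enzymes, which work on either side of the carriers, summed to 5190.5 ± 511 CPM (SD, n = 5). Among these, *Acly*, which cleaves the citrate that *Slc25a1* exports, and *Me1*, the cytosolic malic enzyme, had coefficients of variation of 44.8% and 35.7%, against 15.3% for *Slc25a1*. They were the largest of the 12, and the rest ran from 5.64% (*Mdh1*) to 18.9% (*Gpd2*). The 11 regulators of mitochondrial gene expression summed to 296 ± 18.5 CPM, with *Ppargc1a*, a coactivator of mitochondrial biogenesis, at 17.0 ± 4.27 CPM (SD, n = 5).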

How the data were processed

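RNA-seq libraries (single reads of 50 bases) of 5 AAV8-Control livers of *db/db* mice were described. The submitters' processing notes name STAR 2.0.4b, featureCounts 1.4.5 and GRCm38.p2, which is Ensembl release 76. The authors deposited CPM values, scaled to the reads counted on genes, for 15126 protein-coding genes in 15236 lines, of which 110 repeat a gene and were dropped. Divided by what 1 read is worth in its library, 100% of the values came out whole within 0.01 reads. The floor is 3 reads (0.0845 to 0.154 CPM), and it covers counting error only.

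The other livers of the series, every comparison between groups and 1 of the 43 genes, which stays in the counts and sums, are not reported here. No test between groups or genes was run, and levels are means with the SD over livers. Dixon's 95% limit was used to flag single livers. Nothing in the labels ties a library to a batch. Alternatives, chosen after the data were seen, were DESeq2 1.42.0 size factors and TMM from edgeR 4.0.16 on the recovered reads, totals without genes of mitochondrial DNA, at least 10 reads in every library, no filter, and each liver left out in turn. The scalings were tested on simulated counts, in which all genes of a library shared the same depth factor. That simulation held no change in the share of abundant genes such as *Alb*, so it cannot say which scaling suits these livers.

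Exon lengths and positions came from GENCODE release M21 (GRCm38), which matched all 43 genes, and 15 of these share exon bases with another gene. The members, the related lists and the marker lists were chosen with earlier results of these data known. *Ucp2* and the 6 highest genes per kilobase were given liver by liver by rule, and all other named genes were chosen after their values were seen.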

Additional observations from a re-analysis of the deposited data

Results flagged for a closer look

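In 1 of 38 carriers, 2.63% where chance flags about 1 in 20 groups, a single liver lay farther from the rest than Dixon's 95% limit allows. *Slc25a51* in AAV8-Control replicate 1 read 67.3 CPM, with the other 4 livers at 53.0 to 56.7 CPM.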

How the results depend on the processing

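The summed level of 4251 CPM was 4766 CPM when the genes of mitochondrial DNA were left out of the totals, which raises every CPM by construction, and it stayed within 1 SD with DESeq2's size factors and TMM. When single livers were left out, the summed level ranged from 4147 to 4367 CPM, *Ucp2* from 70.9 to 77.0 CPM, the share of the first 6 carriers from 75.4% to 76.2%, the overlapping neighbours from 28 to 31 and the median coefficient of variation from 10.2% to 12.3%. The coefficient of variation of *Slc25a25* ranged from 37.2% to 75.1%, the lowest without AAV8-Control replicate 1. Under the other scalings it was 60.9% to 64.2%, and the overlapping neighbours numbered 30. The 10 carriers at 100 CPM or more were 9 with DESeq2's size factors and TMM, 12 when the genes of mitochondrial DNA were left out of the totals, and 9 to 10 with a liver left out. A minimum of 10 reads in every library left 39 carriers, as did the filter used. No paired analysis was possible because the values describe 1 group of livers and come from no test. Depth limits the 4 genes with 0 to 4 reads in a library, whose order was not detectable at this depth.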
